A study of Rattus norvegicus with 12 samples.

Results

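Annexin genes were followed across 12 lens arrays of a rat model of hereditary cataract. The set held 9 genes (Anxa1, Anxa2, Anxa3, Anxa4, Anxa5, Anxa6, Anxa7, Anxa8 and Anxa11) of the 18166 genes that could be named on the array, and each was read from the only probe set that the platform annotation gives to that gene symbol alone. Lenses came from male ICR rats (Ihara Cataract Rat, strain ICR/Ihr), an inherited model of cataract, and from male SD rats (Sprague Dawley), which do not carry it. By the labels each lens was taken out of culture medium before its RNA was extracted and amplified. ICR lenses were taken at 4 weeks of age, before any opacity, and at 8 and 10 weeks, when cortical opacity was present, with 3 arrays at each age. SD lenses gave 1 array at each of the same ages, with no cataract. GeneChip Rat Gene 2.0 ST arrays were used, and all values are log2 signals after Robust Multi-array Average (RMA) normalization. A difference of log2 signals is a log2 fold change. The comparison asked which annexins changed as the cortical opacity formed in ICR lenses, and whether the change of Anxa8 and Anxa1 was shared by the rest of the family.

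Annexins are proteins that bind the phospholipids of membranes when calcium is present. They share a conserved core that carries the calcium sites and differ in the N-terminal part, where partners such as S100 proteins dock. They take part in membrane repair, vesicle traffic and the link between membrane and actin. The lens is made of an anterior epithelium and of fibre cells that lose their organelles, and calcium entry into fibres is a known feature of cortical opacity.

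The windows around the RefSeq start sites of 4 annexins are shown first, because Anxa8 and Anxa1 had the largest age differences of the annexins described below, and Anxa5 and Anxa2 had the largest shares of their spread going with replicate number. Each runs 5′ to 3′ on the strand of the gene, from 250 bases before to 50 bases after the start, in build GRCr8. Capitals mark each CG dinucleotide and each match to 1 of 4 motifs. Anxa8 lies at chr16:9403137-9403436 on the + strand, Anxa1 at chr1:227303683-227303982 on the - strand, Anxa5 at chr2:121272647-121272946 on the - strand and Anxa2 at chr8:78986002-78986301 on the + strand.
Anxa8: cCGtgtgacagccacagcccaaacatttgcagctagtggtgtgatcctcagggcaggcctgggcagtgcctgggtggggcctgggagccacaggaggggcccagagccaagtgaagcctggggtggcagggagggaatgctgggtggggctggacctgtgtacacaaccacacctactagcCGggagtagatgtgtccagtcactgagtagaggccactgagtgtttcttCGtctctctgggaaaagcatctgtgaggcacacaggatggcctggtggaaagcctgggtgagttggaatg
Anxa1: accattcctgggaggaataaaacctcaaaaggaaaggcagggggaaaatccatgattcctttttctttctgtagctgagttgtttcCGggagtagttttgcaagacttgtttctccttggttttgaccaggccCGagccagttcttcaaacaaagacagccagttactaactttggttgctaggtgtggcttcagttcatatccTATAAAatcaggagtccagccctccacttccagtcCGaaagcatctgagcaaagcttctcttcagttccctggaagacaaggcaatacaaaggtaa
Anxa5: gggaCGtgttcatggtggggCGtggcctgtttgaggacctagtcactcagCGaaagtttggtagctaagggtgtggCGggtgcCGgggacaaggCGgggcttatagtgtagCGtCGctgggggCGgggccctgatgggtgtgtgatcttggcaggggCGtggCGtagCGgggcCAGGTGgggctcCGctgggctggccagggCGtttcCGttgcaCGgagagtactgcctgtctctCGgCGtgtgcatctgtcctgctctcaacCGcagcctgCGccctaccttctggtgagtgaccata
Anxa2: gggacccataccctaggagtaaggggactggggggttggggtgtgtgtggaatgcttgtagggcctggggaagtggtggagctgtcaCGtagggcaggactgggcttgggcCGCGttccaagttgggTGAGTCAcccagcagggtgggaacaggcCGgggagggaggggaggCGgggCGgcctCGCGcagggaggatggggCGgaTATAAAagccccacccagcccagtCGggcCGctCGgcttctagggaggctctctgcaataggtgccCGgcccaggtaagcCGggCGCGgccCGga

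The windows of Anxa8 and Anxa1 held 3 CG dinucleotides each, those of Anxa5 and Anxa2 held 20 and 17, and the median of all 33469 windows was 7. Among the 8 members with a RefSeq window, the other counts were 17 in Anxa3, 18 in Anxa4, 12 in Anxa7 and 27 in Anxa11. Both strands were searched for the TATA box (TATAAA), the CCAAT box (CCAAT), the AP-1 site (TGANTCA) and the E-box (CAGGTG), which 14.2%, 37.5%, 7.33% and 18.8% of all windows hold. Anxa1 and Anxa2 each had TATAAA, which began 46 bases before the start in Anxa1 and 45 bases before it in Anxa2. Anxa2 also had TGAGTCA, a match to the AP-1 site, 123 bases before the start, and Anxa5 had CAGGTG 77 bases before it. None of the 4 letter strings was in the Anxa8 window. A match is only a description of the letters, and no binding was measured.

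Between 3115 and 3934 genes reached a signal of 5, the minimum that the study used, on each array. All 11 lens fibre markers measured did so on every array. Immune markers (13) and markers of blood and endothelium (5) reached it on no array. The first principal component of the ICR arrays set the 3 with replicate number 1 against the rest and held 67.6% of the variance. Since this touched most annexins, results are given per array, and tests are given without and with the replicate number as a block. In whole lenses, fewer cells of a type and less RNA per cell cannot be told apart.

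Of the 9 annexins, Anxa8, Anxa1, Anxa5, Anxa2 and Anxa6 were at or above 5 on all 12 arrays. Anxa7, Anxa11, Anxa4 and Anxa3 stayed below 5 on all 12 and were therefore not tested. Of 3 further annexins looked for, Anxa10 had means by age and strain of 1.04 to 1.41 and Anxa13 of 1.26 to 2.05, while Anxa9 was not listed under a single symbol.

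**Figure D1:**
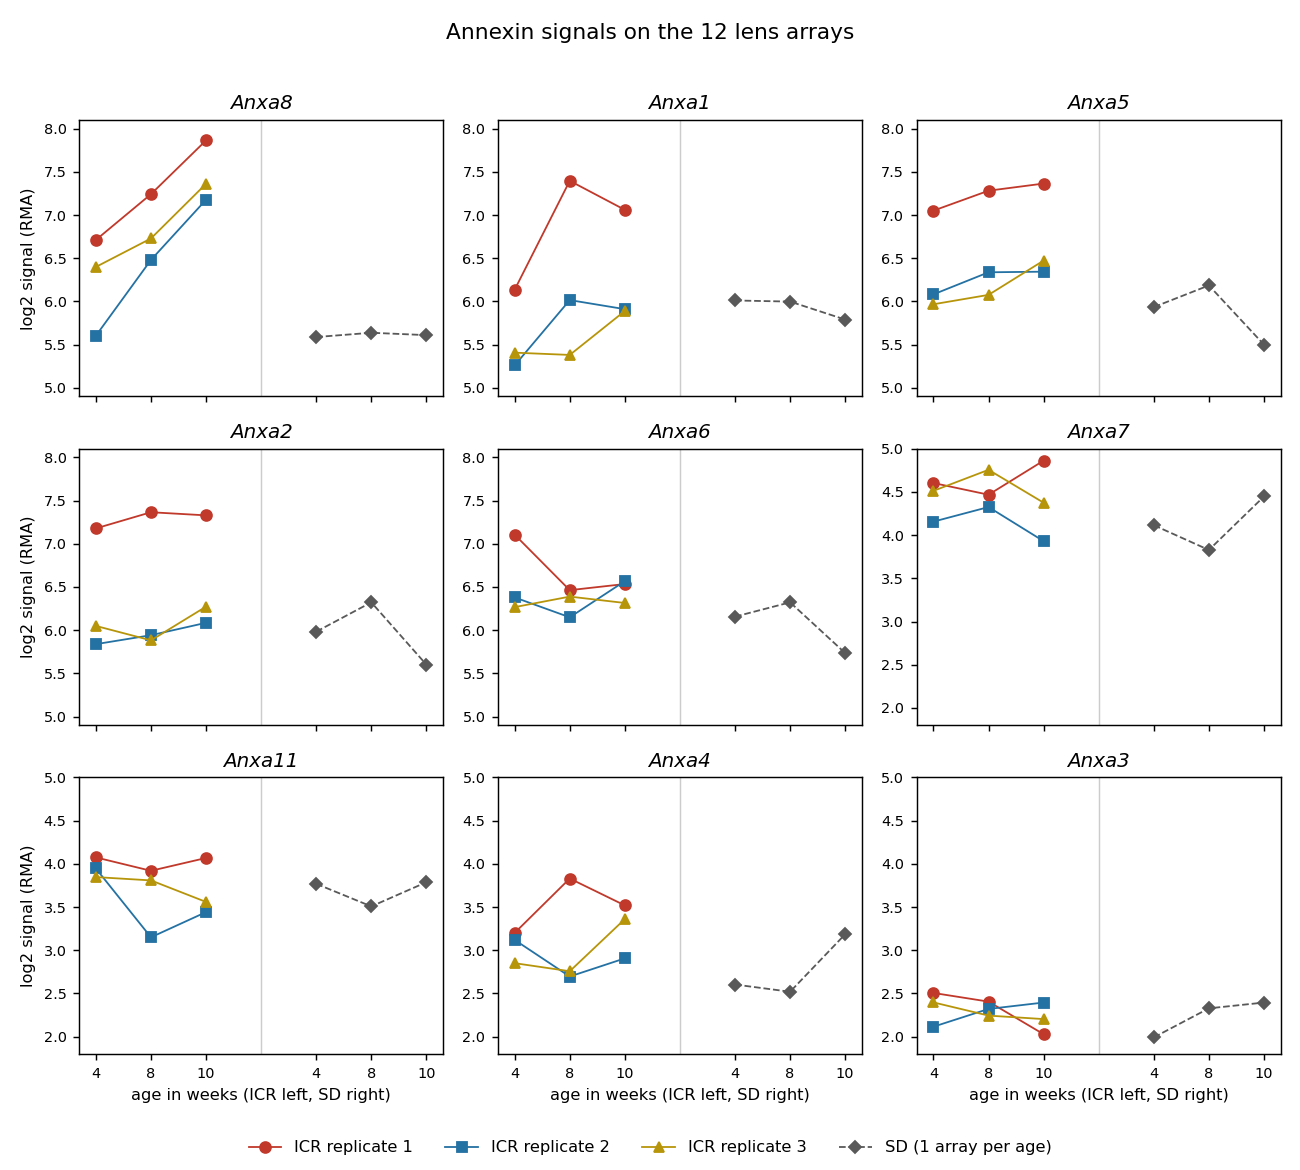
Log2 signals of the 9 annexins (1 panel each) by age in weeks, with ICR arrays on the left of each panel (1 line per replicate number) and the SD arrays, 1 per age, on the right. The upper 5 genes share 1 axis range and the lower 4 another. In Anxa8 every ICR line climbs at each age and the SD values stay between 5.59 and 5.64, while in Anxa2 and Anxa5 the replicate 1 line lies above the other ICR lines by more than any step between ages.

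Anxa8, a member known from squamous epithelia, changed most with age in ICR lenses. Its signals were 6.71, 5.60 and 6.40 at 4 weeks (replicates 1, 2 and 3), 7.24, 6.48 and 6.73 at 8 weeks and 7.86, 7.18 and 7.36 at 10 weeks. Each 10-week array was above each 4-week array, and the 8-week arrays lay between and overlapped both groups. Among the 5 annexins tested, Anxa8 was the only one whose 10-week arrays did not overlap its 4-week arrays, against 4.2% of all 4546 genes tested that were higher without overlap. The means were 7.47 ± 0.36 at 10 weeks and 6.24 ± 0.57 at 4 weeks (SD of replicates, n = 3 each), a difference of 1.23 or 2.35-fold. Within replicate numbers the 10-week array exceeded the 4-week array by 1.15, 1.57 and 0.96, so all 3 numbers went the same way.

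Without the block, the Anxa8 difference of 1.23 (SE 0.33, 95% interval 0.48 to 1.98) did not pass the threshold in limma after Benjamini-Hochberg adjustment over all genes (adjusted p = 0.176, unadjusted p = 0.00539). In that fit no gene at all was called higher, 0% of those tested, and 501 genes had an unadjusted p below 0.05. With the replicate number as a block the same difference had an SE of 0.13 and an interval of 0.93 to 1.53, and Anxa8 was called higher at 10 weeks (adjusted p = 0.000989), as were 1.58% of the genes tested. The call was present in 18 of 18 fits with the block, this one included, with differences of 1.07 to 1.36 and adjusted p of 1.65e-06 to 0.0390. These included the fit without the 3 arrays of replicate 1 (difference 1.27, adjusted p = 0.0390). Anxa8 has 1 probe set, so the fits that changed only the filter, the probe sets or the variance estimate left its difference at 1.23. They are not separate evidence for the call. In the 18 alternatives without the block the call was present in 0.

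The Anxa8 difference was spread over both age steps. It was 0.58 at 8 weeks against 4 weeks (0.53, 0.88 and 0.33 by replicate number) and 0.65 at 10 weeks against 8 weeks (0.62, 0.70 and 0.63). Neither passed the threshold, even with the block (adjusted p = 0.101 and adjusted p = 0.146). At 8 weeks the blocked interval was 0.28 to 0.88, where 0.022% of all genes were called higher. Between 8 and 10 weeks it was 0.35 to 0.95, where 0.22% of all genes were called in either direction.

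Anxa1, a glucocorticoid-induced annexin that acts through formyl peptide receptors, had a larger mean in older ICR lenses, with a wide spread. Its signals were 6.14, 5.26 and 5.41 at 4 weeks, 7.40, 6.02 and 5.38 at 8 weeks and 7.06, 5.91 and 5.89 at 10 weeks. At 8 weeks replicate 3 was at the level of the 4-week arrays, and at 10 weeks replicates 2 and 3 were below the 4-week array of replicate 1. The means were 6.29 ± 0.67 at 10 weeks and 5.60 ± 0.47 at 4 weeks (SD of replicates, n = 3 each), a difference of 0.69 or 1.61-fold. By replicate number the differences were 0.92, 0.65 and 0.48. The difference did not pass the threshold without the block (SE 0.54, interval -0.55 to 1.92, adjusted p = 0.806) or with it (SE 0.20, interval 0.24 to 1.13, adjusted p = 0.0641).

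The blocked result of Anxa1 lay near the threshold. It passed without the 4-week array of replicate 3 (difference 0.91, adjusted p = 0.0247), without the 8-week array of replicate 1 (adjusted p = 0.0416) and without the 8-week array of replicate 3 (adjusted p = 0.0264). At 8 weeks the Anxa1 difference of 0.66 was close to that at 10 weeks and was made of 1.26, 0.76 and -0.03 by replicate number (adjusted p = 0.188 with the block). The step between 8 and 10 weeks was 0.02, made of -0.34, -0.11 and 0.51. The formyl peptide receptor gene Fpr1 had means of 1.02 to 1.17 in ICR lenses, below the minimum of 5.

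Anxa5, which binds phosphatidylserine on the surface of dying cells, showed a small difference in the same direction on all 3 replicate numbers. Its signals were 7.05, 6.08 and 5.97 at 4 weeks, 7.28, 6.34 and 6.08 at 8 weeks and 7.36, 6.34 and 6.47 at 10 weeks. Replicate 1 at 4 weeks was above every array of replicates 2 and 3 at any age. The 10-week minus 4-week difference was 0.36 or 1.28-fold (0.31, 0.26 and 0.51 by replicate number). It was not called without the block (interval -0.62 to 1.34, adjusted p = 0.924) or with it (interval 0.11 to 0.62, adjusted p = 0.0807).

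Anxa2, which forms a complex with S100a10 at the plasma membrane, gave values of 7.18, 5.84 and 6.05 at 4 weeks, 7.37, 5.94 and 5.88 at 8 weeks and 7.33, 6.09 and 6.27 at 10 weeks. The replicate 1 arrays lay more than 1 log2 unit above the others at each age, and the ages overlapped. The 10-week minus 4-week difference was 0.21 or 1.15-fold (0.15, 0.25 and 0.22 by replicate number). It was not called without the block (interval -1.01 to 1.42, adjusted p = 0.975) or with it (interval -0.06 to 0.47, adjusted p = 0.293), and its sign turned in the fit without the block when the 10-week array of replicate 1 (-0.18) or the 4-week array of replicate 2 (-0.05) was left out.

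Anxa6, whose conserved core is duplicated, had no common direction. Its signals were 7.11, 6.38 and 6.27 at 4 weeks, 6.46, 6.15 and 6.39 at 8 weeks and 6.53, 6.57 and 6.31 at 10 weeks, and only the 4-week array of replicate 1 stood out. The 10-week minus 4-week difference was -0.11 (-0.57, 0.19 and 0.05 by replicate number), with an interval of -0.48 to 0.26 and an adjusted p = 0.695 with the block and an interval of -0.63 to 0.41 and an adjusted p = 0.970 without it. Without the 4-week array of replicate 1 it was 0.15, and with the block and without the 10-week array of replicate 1 it was 0.02.

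**Figure D2:**
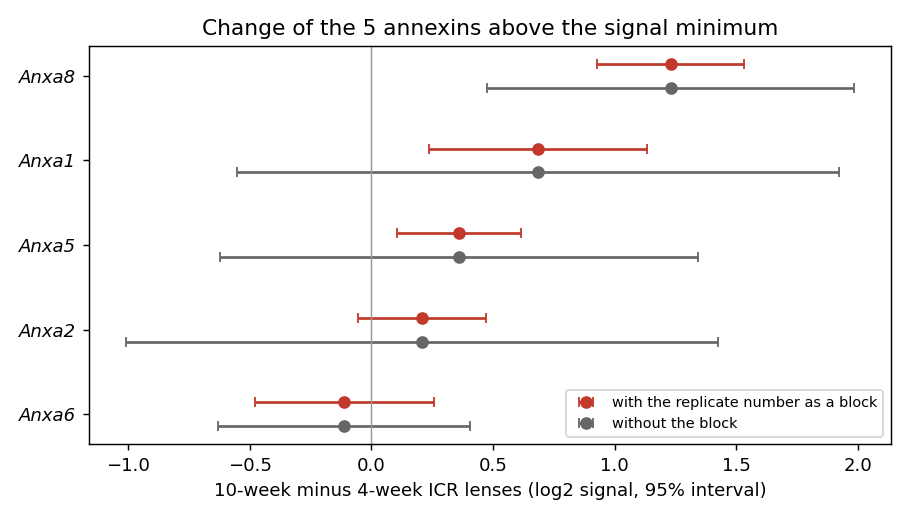
Difference of 10-week minus 4-week ICR lenses (log2 signal, points) with its 95% interval (bars) for the 5 annexins at or above the minimum, with the replicate number as a block (upper, red) and without it (lower, grey). The block leaves each difference as it is and narrows the interval, most in Anxa2 and least in Anxa6, and only Anxa8 was called.

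The 4 annexins below the minimum are given as values alone. Anxa7, also called synexin, ranged over 3.93 to 4.86 in ICR lenses and 3.83 to 4.45 in SD lenses. Anxa11, which binds S100a6, ranged over 3.15 to 4.07 in ICR lenses and 3.51 to 3.79 in SD lenses. Anxa4, found in secretory epithelia, ranged over 2.70 to 3.83 in ICR lenses and 2.52 to 3.19 in SD lenses. Anxa3, known from neutrophils, ranged over 2.03 to 2.51 in ICR lenses and 1.99 to 2.39 in SD lenses. Their 10-week minus 4-week differences in ICR lenses were -0.03, -0.27, 0.21 and -0.13. Anxa11 was lower at 10 weeks on 3 of 3 replicate numbers, by amounts that included 0.01, and the other 3 had mixed directions.

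**Figure D3:**
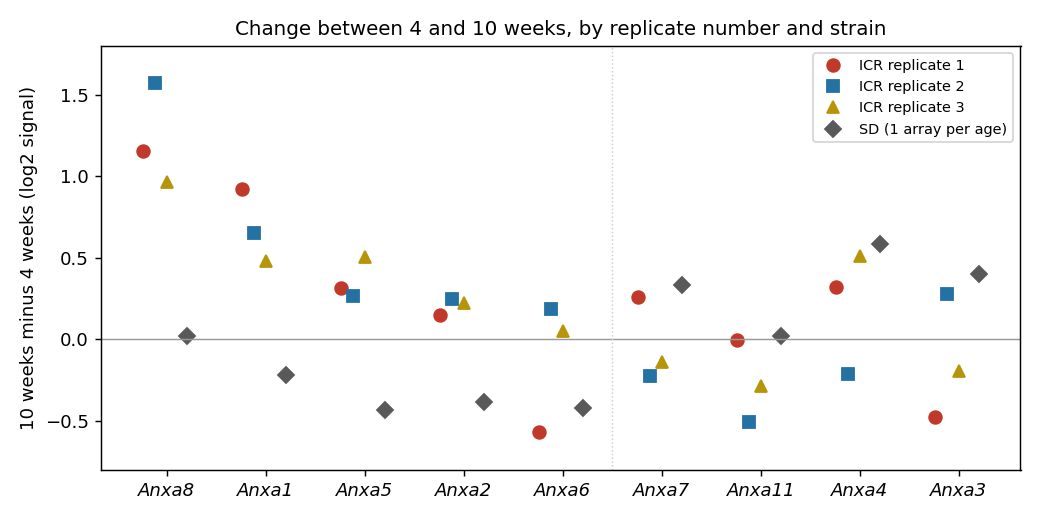
Difference of 10 weeks minus 4 weeks (log2 signal) for each annexin within each ICR replicate number (circles, squares and triangles) and between the single SD arrays (diamonds). The dotted line separates the 5 annexins at or above a signal of 5 from the 4 below it. Anxa8 has ICR values of 0.96 to 1.57 and an SD value of 0.02, and Anxa6, Anxa7, Anxa4 and Anxa3 have ICR values on both sides of 0.

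The size of the Anxa8 change was compared with that of each other annexin tested, in a test added after these values had been seen. Anxa8 was set against the others because its change was the largest of the same values, which the adjustment does not take into account. The p-values below therefore describe these arrays and are no support for a larger change of Anxa8. The change of Anxa8 exceeded that of Anxa6 by 1.34, that of Anxa2 by 1.02, that of Anxa5 by 0.87 and that of Anxa1 by 0.54, and each excess was present on 3 of 3 replicate numbers. In a 2-sided exact permutation test of the ages within replicate numbers (216 arrangements), p was 0.00926 for Anxa6, Anxa2 and Anxa5, the smallest value these arrangements can give, with an adjusted p of 0.0123 over the 4 comparisons. For Anxa1 the exact permutation p was 0.139 (adjusted p = 0.139). When the ages were permuted over all 9 arrays (1680 arrangements), the exact adjusted p was 0.00952 for Anxa6, 0.0333 for Anxa2, 0.0333 for Anxa5 and 0.232 for Anxa1. The excess over Anxa1 was 0.23, 0.92 and 0.48 by replicate number. For Anxa1, as for the other annexins compared, no difference from Anxa8 is read from these tests.

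As a group, 4 of the 5 annexins tested had a higher mean at 10 weeks, against 34.5% of all genes tested. The median difference was 0.36 in the 5 annexins and -0.10 in all genes tested. Both figures include Anxa8 and Anxa1, whose rise was known when the set was chosen. Apart from them, the differences were 0.36 in Anxa5, 0.21 in Anxa2 and -0.11 in Anxa6. With 5 genes of 1 family and 1 set of arrays, these figures are descriptions, and nothing about the family is read from them.

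Replicate number accounted for more of the spread than age in 4 of the 5 annexins. In Anxa2, 96.3% of the sum of squares over the 9 ICR arrays went with replicate number and 2.11% with age. In Anxa5 the shares were 89.7% and 8.41%, and in Anxa1 they were 69.1% and 20.8%. Anxa6 had 42.8% with replicate number and 15.7% with age. Anxa8 was the exception, with 31.3% going with replicate number and 65.3% with age, where the medians over all genes tested were 52.5% and 15.6%.

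Replicate 1 was the highest of its age at all 3 ages in Anxa1, Anxa2, Anxa4, Anxa5, Anxa8 and Anxa11, as it was in 44.4% of the genes tested. The gap between replicate 1 and the mean of the others, averaged over ages, was 1.28 in Anxa2, 1.22 in Anxa1, 1.02 in Anxa5, 0.65 in Anxa8 and 0.36 in Anxa6, against a median of 0.22 over all genes tested. Gaps at least as large as that of Anxa2 were found in 7.90% of genes, as large as that of Anxa1 in 8.86% and as large as that of Anxa5 in 13.4%. What sets the replicate 1 arrays apart was not tested.

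**Figure D4:**
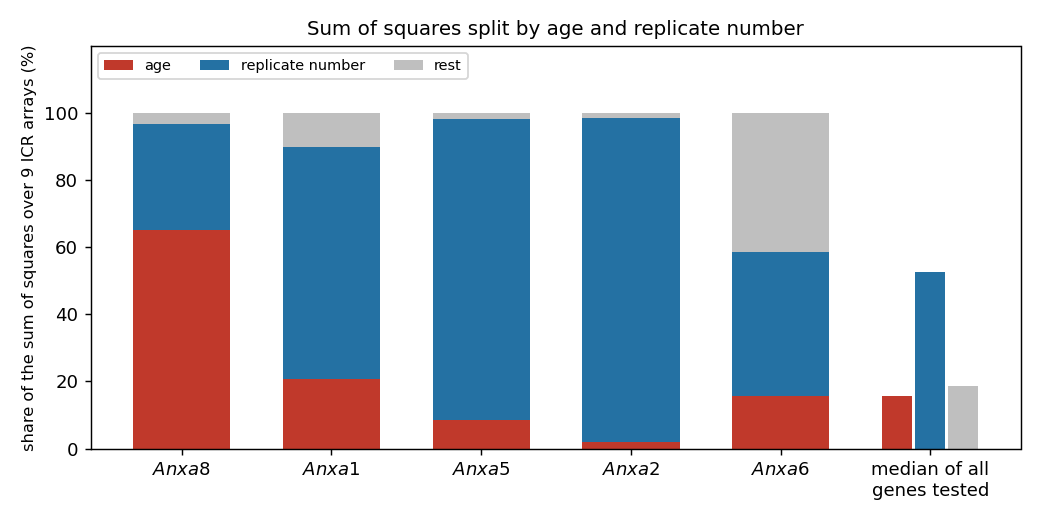
Share (%) of the sum of squares over the 9 ICR arrays that went with age (red), replicate number (blue) and neither (grey) for the 5 annexins tested, beside the medians of all genes tested, which need not add up to the whole. Age holds 65.3% in Anxa8 and 2.11% in Anxa2.

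The SD arrays gave a view of the same ages without cataract, with 1 array per age and hence no spread of their own. Anxa8 was flat in SD lenses at 5.59, 5.64 and 5.61 (4, 8 and 10 weeks). Of the 9 ICR arrays, 8 lay above all SD arrays, the lowest of these at 6.40, and the 4-week array of replicate 2 (5.60) lay within the SD range. With age as a factor, Anxa8 was 1.23 higher in ICR than in SD lenses (SE 0.28, interval 0.60 to 1.85), which did not pass the threshold in limma (adjusted p = 0.0972), where 0.367% of 4627 genes were called higher. It passed without the 4-week array of replicate 2 (difference 1.35, adjusted p = 0.0291).

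Anxa1, Anxa2, Anxa5 and Anxa6 had lower SD signals at 10 weeks than at 4 weeks. The share of all genes that were lower on the SD arrays was not counted. In ICR lenses 34.5% of all genes tested were higher at 10 weeks, so nothing about annexins is read from this direction. Anxa1 had 6.01, 6.0 and 5.79 in SD lenses (4, 8 and 10 weeks), and Anxa5 had 5.94, 6.19 and 5.50. Anxa2 had 5.98, 6.32 and 5.60, and Anxa6 had 6.16, 6.32 and 5.74. Anxa5, Anxa2 and Anxa6 were highest at 8 weeks in SD lenses. No annexin had all 9 ICR arrays above all 3 SD arrays, as 2.74% of genes did.

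Averaged over ages, ICR lenses exceeded SD lenses by 0.68 in Anxa5 (interval -0.06 to 1.41, adjusted p = 0.553), by 0.47 in Anxa2 (interval -0.42 to 1.36, adjusted p = 0.700), by 0.39 in Anxa6 (interval -0.02 to 0.81, adjusted p = 0.543) and by 0.12 in Anxa1 (interval -0.79 to 1.02, adjusted p = 0.911). The Anxa1 value turned to -0.29 without the 3 replicate 1 arrays. Of all genes tested, 67.9% were higher in ICR lenses, with a median difference of 0.10, so the shared direction is not read as a trait of annexins. The change between 4 and 10 weeks was itself compared between strains. Of all genes tested, 60.2% had an ICR change above the SD change, with a median excess of 0.08. The ICR change exceeded the SD change by 1.21 in Anxa8 (interval -0.30 to 2.71), by 0.91 in Anxa1 (-1.56 to 3.38), by 0.80 in Anxa5 (-1.16 to 2.76), by 0.59 in Anxa2 (-1.84 to 3.02) and by 0.31 in Anxa6 (-0.72 to 1.34). None was called, the adjusted p rounding to 1.0 in each, and 0% of 4627 genes were called, so a strain difference in the change was not detectable with 1 SD array per age (70 genes had an unadjusted p below 0.05).

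The study selected genes by the fold between age means, and its threshold for increases was 1.5-fold. By this rule Anxa1 passed at 8 weeks (1.58-fold) and Anxa1 and Anxa8 at 10 weeks (1.61-fold and 2.35-fold). Anxa8 was just below the threshold at 8 weeks (1.49-fold). Increases past the threshold were found in 0.484% of genes at 8 weeks and 1.06% at 10 weeks. No annexin passed the threshold for decreases in ICR lenses, or either threshold in SD lenses, but only 0.110% to 1.08% of genes passed any of these, so nothing is read from 0 of 5 annexins. The rule has no test, and it depended on single arrays. Without the 4-week array of replicate 1, Anxa2 and Anxa5 passed too, making 4, and without the 4-week array of replicate 2 only Anxa8 passed. The study did not stop at this rule. It left out genes that also changed in SD arrays and measured candidates by RT-qPCR, a separate measurement of RNA. Anxa1 and Anxa8 are both in its list of genes significantly increased by RT-qPCR in ICR lenses at 8 or 10 weeks. The study also measured the increased genes by RT-qPCR in SD lenses. Genes that rose in both strains it took as part of lens maturation, and those that rose in ICR alone as important for cortical cataract. The list itself does not give the group of Anxa1 or Anxa8.

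Profiles most like those of Anxa8 and Anxa1 were searched among the genes tested, by the root mean square difference of centred log2 profiles over the 9 ICR arrays. For Anxa8 the nearest were Cyb5r1 (0.23), Abhd6 (0.26), Pnpla3 (0.29), Hopx (0.30) and Dapl1 (0.30), where the median gene stood at 0.66. Cyb5r1 encodes a cytochrome b5 reductase, Abhd6 a monoacylglycerol lipase and Pnpla3 a lipid droplet acylhydrolase. Their 10-week minus 4-week differences were 0.93, 0.69 and 0.63, smaller than that of Anxa8. Abhd6 reached a signal of 5 in ICR lenses only on the 8-week array of replicate 1 and the 10-week arrays of replicates 1 and 3. For Anxa1 the nearest were Sugt1 (0.17), Mrpl21 (0.22), Bri3 (0.25), Hspb1 (0.25) and Marchf2 (0.26), with a median gene at 0.67. Hspb1 encodes a small heat shock protein, and Mrpl21 a mitochondrial ribosomal protein. Sugt1, Mrpl21 and Marchf2 reached a signal of 5 in ICR lenses only on replicate 1 arrays at 8 or 10 weeks. They were thus tested only through arrays on which they were high, and their nearness to Anxa1 includes the replicate 1 gap.

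Among the annexins, the nearest pair was Anxa2 and Anxa5, with a root mean square difference of 0.17. Anxa1 stood 0.29 from Anxa5 and 0.33 from Anxa2. Anxa8 stood 0.47 from Anxa5, 0.50 from Anxa1 and 0.54 from Anxa2, and Anxa6 was 0.43 or more from each of the others. The profiles share arrays, and the nearness of Anxa1, Anxa2 and Anxa5 includes the replicate 1 gap given above.

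Of 8 annexin-binding proteins measured, 4 were tested, and 1 was called higher at 10 weeks with the block and none without it. Among all genes tested, 1.58% were called higher with the block and 0% without it. S100a10, the partner of Anxa2, had signals of 8.60, 7.49 and 7.93 at 4 weeks, 9.26, 7.79 and 8.42 at 8 weeks and 9.12, 8.13 and 8.35 at 10 weeks. The 10-week arrays overlapped the 4-week arrays, but each was higher than its own number at 4 weeks, by 0.52, 0.63 and 0.41. The difference of 0.52 was called with the block (SE 0.12, adjusted p = 0.0305) and not without it (adjusted p = 0.830). The blocked call was lost when any 4-week or 10-week array was left out, with adjusted p of 0.127, 0.0821 and 0.0604 without the 4-week replicates 1, 2 and 3 and of 0.0903, 0.142 and 0.0546 without the 10-week replicates 1, 2 and 3.

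S100a11, the partner of Anxa1, gave values of 8.77, 6.72 and 6.14 at 4 weeks and 8.20, 5.24 and 6.0 at 10 weeks in ICR lenses, and of 5.21, 5.63 and 5.58 in SD lenses (4, 8 and 10 weeks). It was lower at 10 weeks on 3 of 3 replicate numbers, by 0.73 on average, and was not called (adjusted p = 0.0677 with the block). It passed with the block and without the 4-week array of replicate 3 (adjusted p = 0.0244). S100a6 (0.20) and S100a4 (0.03) were not called.

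Other proteins of calcium-dependent membrane binding did not give a call. Of 18 measured, 4 were tested, and those with the smallest p were Prkca, a protein kinase C (-0.45, adjusted p = 0.0596 with the block), and Esyt2, a tether between the endoplasmic reticulum and the plasma membrane (-0.23, adjusted p = 0.209 with the block). Of 15 membrane repair proteins measured, 9 were tested, none was called higher, and Ehd1, which acts in endocytic recycling, was called lower with the block (difference -0.42, SE 0.10, adjusted p = 0.0379) and not without it (adjusted p = 0.270). Of all genes tested, 7.33% were called lower at 10 weeks with the block and 0.154% without it. The Ehd1 difference between the single SD arrays was -0.41. The Ehd1 call was lost without any 1 of 8 arrays, with adjusted p of 0.0518 to 0.136, and was present without the 8-week array of replicate 1 (adjusted p = 0.0451).

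Marker levels also differed between ages, in both strains. The mean signal over 12 lens epithelium markers was 5.38 to 5.45 at 10 weeks and 5.65 to 5.92 at 4 weeks in ICR lenses, and 3 of the 10 tested were called lower with the block and 0 without it. On the single SD arrays it was 5.87 at 4 weeks, 5.92 at 8 weeks and 5.51 at 10 weeks. The mean over 15 markers of ciliary body, iris and zonule was 2.89 to 3.23 at 10 weeks and 3.41 to 4.20 at 4 weeks, and 4 of the 5 tested were called lower with the block and 0 without it, beside the 7.33% of all genes called lower with the block. On the single SD arrays it was 3.49 at 4 weeks, 3.86 at 8 weeks and 3.14 at 10 weeks, so both lists were highest at 8 weeks in SD. The number of these 15 markers at a signal of 5 was 4, 5 and 2 on the 4-week ICR arrays. On the 10-week ICR arrays it was 0, 0 and 2. The 5 tested had their highest ICR mean at 4 weeks, so they passed the filter mainly through arrays on which they were high. Nothing is therefore read from the 4 called beside 7.33%. Of the lens epithelium markers called, Ptn and Enpp2 also had 10-week means below 5 (4.37 and 4.21). The 6 markers of corneal and conjunctival epithelium, tissues in which annexins are also expressed, averaged 3.08 to 3.43 at 10 weeks and 2.85 to 3.34 at 4 weeks, and at most 1 of them reached a signal of 5 on any array. Of 18 immediate early genes, 0 to 15 reached 5 on an array, and the count was 15 on the 4-week array of ICR replicate 2, the ICR array on which Anxa8 was lowest, and on the 4-week SD array. By ICR replicate number the counts were 7, 15 and 0 at 4 weeks, 11, 10 and 4 at 8 weeks and 5, 9 and 0 at 10 weeks. The part of these levels in the annexin values was not tested.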

How the data were processed

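RNA of rat lenses was measured on 12 GeneChip Rat Gene 2.0 ST arrays, 9 of ICR and 3 of SD rats, grouped by the sample labels. The authors applied Robust Multi-array Average (RMA) normalization in R and deposited log2 signals of 36685 probe sets. Its version, and whether it was run on the 12 arrays together, is not given in the sources used here. Of the probe sets, 18511 have 1 gene symbol, 575 several and 17599 are not listed. Where a gene had several probe sets (291 genes), the one with the highest mean over the ICR arrays was kept. The table holds no background values, and the study's minimum of 5 served as the filter, on at least 1 array, leaving 4546 genes in ICR and 4627 over both strains. The number of arrays limits precision.

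Ages were compared with limma 3.58.1 (lmFit, eBayes) under R 4.3.3, 2-sided, with Benjamini-Hochberg adjustment over all genes tested and a threshold of 0.05. Strains were compared with age as a factor, and by a strain by age term, in which the single SD arrays were assumed to vary like the ICR arrays. The sources do not say whether arrays of an age are separate animals, so the p-values reflect no more than the spread among them, which may be technical. Whether replicate numbers pair the ICR arrays was checked by correlating deviations from the age means over 4546 genes. Arrays of the same number gave r of 0.547 to 0.848 (9 pairs) and arrays of other numbers -0.750 to 0.508 (18 pairs). All negative values came from pairs that held a replicate 1 array. Among replicates 2 and 3, arrays of the same number gave 0.547 to 0.687 and arrays of other numbers 0.345 to 0.508. The check thus shows mainly that replicate 1 stands apart. On this basis the number, which the labels do not tie to an animal or batch, was used as a block beside the fit without it.

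The 9 members, the gene lists and the tests were chosen with earlier results of these data known. Named genes were the 9 members, the 5 genes nearest in profile to Anxa8 and to Anxa1, and from each list the genes called or the 2 with the smallest p. S100a4, S100a6, Fpr1, Anxa10 and Anxa13 were named beyond this rule. Start site windows were taken from RefSeq (GRCr8), which matched 8 of 9 members, all but Anxa6. Alternatives were no filter, a filter on 3 arrays, quantile and cyclic loess normalization, a variance trend with robust estimation, the mean of a gene's probe sets, all probe sets, all 12 arrays in the age fit and each ICR array left out. Alternatives combined with the block, the set without replicate 1 and the exact permutation tests were added after seeing the data. Python 3.11.15 with matplotlib 3.10.9 drew the figures.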

Additional observations from a re-analysis of the deposited data

How the results depend on the processing

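Without the block, no annexin was called at 10 against 4, 8 against 4 or 10 against 8 weeks in ICR lenses under any alternative. With the replicate block, 1 was called at 10 against 4 weeks (Anxa8). The block together with no filter, the mean of probe sets or the added probe sets also gave 1. With the filter on 3 arrays or cyclic loess it gave 2 (Anxa1 or Anxa5 besides Anxa8). With quantile normalization or the variance trend it gave 3 (Anxa1, Anxa5 and Anxa8). The block without 1 ICR array gave 1 to 2, and without the 3 arrays of replicate 1 it gave 1. The block changed no other annexin call, except that with the variance trend Anxa8 was also called, as the 1 annexin, at 8 against 4 weeks and at 10 against 8 weeks. Against SD lenses, 1 annexin (Anxa8) was called with quantile normalization, and leaving out 1 ICR array gave 0 to 1. For the change between strains the count was 0 in every alternative. The fold thresholds gave 1 to 4 annexins without 1 ICR array and 1 (Anxa8) without the 3 arrays of replicate 1, against 2 with all arrays. The cause of these shifts was not tested.

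Signs turned in 4 results. Anxa6 at 10 against 4 weeks was 0.15 without the 4-week array of replicate 1 (0.10 with the block), 0.020 with the block and without the 10-week array of replicate 1, and 0.12 without the 3 replicate 1 arrays, with or without the block. Without 1 array and without the block it ranged over -0.27 to 0.15. Anxa2 at 10 against 4 weeks ranged over -0.18 to 0.62 and was -0.05 without the 4-week array of replicate 2 and -0.18 without the 10-week array of replicate 1. Anxa1 against SD ranged over -0.06 to 0.25 and was -0.06 without the 8-week array of replicate 1, -0.02 without the 10-week array of replicate 1 and -0.29 without all 3. S100a11 ranged over -1.59 to 0.053, and was positive without the 4-week array of replicate 1. Anxa8 at 10 against 4 weeks kept its direction in 36 of 36 alternatives (0.91 to 1.47), with adjusted p of 0.0544 to 0.458 in the 18 without the block. The alternatives of filter, probe sets or variance estimate could not change this direction.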
